A study of Homo sapiens with 24 samples.

Results

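The genes described here are the unfolded protein response and the protein folding machinery of the endoplasmic reticulum (ER), followed in 2 prostate cancer lines with and without androgen and with and without an ETS transcription factor. They are 39 genes listed by function, each read from 1 probe set, the one with the highest mean over the 24 arrays. A total of 38 of the 39 had a probe set that names 1 gene only, out of 19775 genes on the array. SYVN1, the ubiquitin ligase of ER-associated degradation, shares its probe set with a microRNA gene and was not used here. All 38 were bright enough to be tested in both lines. They comprised 12 chaperones and cofactors, 6 genes of disulfide formation, 9 of ER-associated degradation (ERAD), 2 of the IRE1-XBP1 arm, 3 of the ATF6 and CREB3L group and 6 of the PERK-ATF4 arm.

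Expression arrays (Affymetrix, HG-U133 Plus 2.0) were run on VCaP, a line in which TMPRSS2 is fused to ERG, and on LNCaP, a line with a rearranged ETV1; both are androgen-responsive prostate cancer cells. VCaP received a small interfering RNA against ERG (siERG) or its control (siControl), and LNCaP a hairpin targeting ETV1 (shETV1) or its control, called shControl in the sample titles and siControl in another label. All cells had RNA interference for 24 h, then 2 days without hormone, then 16 h with ethanol vehicle (EtOH) or 10 nM dihydrotestosterone (DHT), the main prostate androgen. Each of the 8 groups held 3 biological replicates lettered A, B and C; the labels do not say that they were separate cultures, so p-values measure the spread between these samples. Whether the hairpin cells are 1 clone was not given in the labels.

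The ER folds secreted and membrane proteins with chaperones led by HSPA5 (BiP), and proteins that fail to fold are sent back to the cytosol by ERAD. When unfolded protein builds up, separate sensors respond: IRE1, encoded by ERN1, splices the XBP1 messenger; ATF6 and its CREB3L relatives are cut to release transcription factors; and PERK, encoded by EIF2AK3, phosphorylates a translation factor so that ATF4 and then DDIT3 (CHOP), TRIB3 and CHAC1 are made. Luminal prostate cells secrete large amounts of protein under androgen control. The array measures messenger abundance and cannot tell spliced from unspliced XBP1.

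Many of these genes share short promoter elements, and the windows below show the letters searched for in the members whose values are described next. RefSeq promoters of build GRCh38.p14, from 250 bases before to 50 bases after each start, were available for 36 of the 39 genes, as 47 windows because 8 genes have more than 1 start. DERL1, DERL3 and PDIA3 were not among them. The ER stress element ERSE, searched by its consensus on both strands as were all elements here, was present in 10 of the 47 member windows (21.3%) and in 27 of all 35116 windows (0.0769%). It was found in CALR, CANX, CRELD2, ERO1B, HSP90B1, HSPA5, PDIA6 and XBP1, and in CANX the same site was counted from more than 1 start. The shorter ERSE-II was present in 3 member windows (6.38%), those of HERPUD1, HYOU1 and SDF2L1, and in 0.0541% of all windows. UPRE, TGACGTGG, a letter form that XBP1 is known to bind, was present in DNAJC10 and HYOU1 (4.26%) and in 0.729% of all windows, and in HYOU1 it overlapped the farther of 2 ERSE-II matches. The ATF4 type element TGATGNAAT was in 0 of the 47 windows and in 0.991% of all windows. At that share 47 windows are too few for 0 matches to set the members apart. Capitals mark the matched letters, reversed and complemented where the element lies on the other strand.
HSPA5 (chr9:125241371-125241429, minus strand): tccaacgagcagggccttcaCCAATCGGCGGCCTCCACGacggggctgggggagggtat
HSP90B1 (chr12:103930301-103930359, plus strand): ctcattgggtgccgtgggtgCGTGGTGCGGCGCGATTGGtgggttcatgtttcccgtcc
PDIA6 (chr2:10812833-10812891, minus strand): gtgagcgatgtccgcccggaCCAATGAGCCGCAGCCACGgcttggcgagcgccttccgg
CRELD2 (chr22:49918534-49918592, plus strand): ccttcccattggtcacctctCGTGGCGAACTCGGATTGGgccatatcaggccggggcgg
XBP1 (chr22:28800583-28800641, minus strand): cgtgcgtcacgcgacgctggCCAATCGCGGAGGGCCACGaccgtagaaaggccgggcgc
HERPUD1 (chr16:56932005-56932055, plus strand): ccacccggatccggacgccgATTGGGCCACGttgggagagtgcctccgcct
SDF2L1 (chr22:21642094-21642144, plus strand): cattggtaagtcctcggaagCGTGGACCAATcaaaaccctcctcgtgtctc
HYOU1 (chr11:119057254-119057304, minus strand): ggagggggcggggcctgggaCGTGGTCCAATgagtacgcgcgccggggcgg
DNAJC10 (chr2:182716112-182716159, plus strand): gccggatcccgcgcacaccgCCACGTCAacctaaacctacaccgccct
The capitals lie between 125 and 34 bases before the start in all but SDF2L1, where they begin 188 bases before it. A match describes letters in this window only.

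The targeted genes followed their labels. Median intensities were 47.6 to 53.2 in VCaP and 42.7 to 44.8 in LNCaP, arrays of a group correlated at 0.989 to 0.992, and 0 pairs of arrays held identical values. ERG intensity was 950.2 to 1115 in siControl with EtOH and 567 to 592 in siERG, and it was 1159.7 to 1204 and 536 to 569 with DHT. ETV1 was 1029.8 to 1215 in shControl with EtOH and 714 to 769 in shETV1, and 1264 to 1326 and 803 to 892 with DHT. Of 6 luminal epithelial markers with a probe set, KRT8, KRT18, EPCAM, CDH1 and HOXB13 lay above the array median on every array, and KRT19 did so on all 12 VCaP and 6 of the 12 LNCaP arrays. Of 12 markers of other cell types, the endothelial CDH5, the T cell CD3D and the basal KRT5 and KRT14 lay below the median on every array, and the leukocyte PTPRC on all but 1 LNCaP array. The stromal COL1A1 lay above it on every array and the myeloid LYZ on all 12 VCaP and 0 LNCaP arrays. The endothelial VWF lay above it on 10 of 12 VCaP and 9 of 12 LNCaP arrays and PECAM1 on 6 and 5, and the stromal LUM did so on 6 and 9, DCN on 6 and 3 and COL1A2 on 0 and 3. All changes below are differences of log2(intensity + 16) ± standard error from limma with 3 arrays per group, adjusted over all genes tested in a comparison. A gene rose or fell when its adjusted p was below 0.05.

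In VCaP control cells, genes of the ER folding machinery and of every sensor arm rose with DHT. Of the 38 members tested, 32 rose and 0 fell, where 19.6% of the 12840 genes tested rose and 25.4% fell. At an unadjusted p under 0.05 in limma, 33 rose and 0 fell. All genes were not counted at that threshold, here or below, so unadjusted member counts have no share to be read against. The median change of the members was 0.57 and that of all genes tested was -0.03. In these bulk samples, fewer cells of a kind and less RNA per cell cannot be told apart. The 3'/5' signal ratio of GAPDH, a sign of RNA quality, was 1.05 ± 0.0128 (SD, n = 3) with EtOH and 1.07 ± 0.00805 with DHT (exact permutation p = 0.1, the smallest that 3 against 3 arrays allow). With this ratio as a covariate, 31 members rose. The same ratio of ACTB was higher, with means of 2.76 to 3.50 over the 8 groups. It was 3.31 ± 0.322 (SD, n = 3) with EtOH and 3.50 ± 0.0571 with DHT (exact permutation p = 0.4), and as a covariate it also left 31 members rising. The summed intensity of the 6 luminal markers was 21864 to 23341 with EtOH and 25825 to 27939 with DHT, and that of 12 markers of other cell types was 951 to 1058 and 883 to 1105; their part in the result was not tested.

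All 12 chaperones and cofactors rose, with a median of 0.74. HSPA5, the master chaperone that also holds the sensors inactive, had intensities of 4229.6, 4259.9 and 3997 with EtOH and 6335, 5957 and 5889.8 with DHT. The groups did not overlap, and the change was 0.54 ± 0.05 (adjusted p = 6.48e-06). DNAJB9, a cofactor that drives HSPA5 onto IRE1 and misfolded clients, showed the largest change of this arm, 1.15 ± 0.04 (adjusted p = 1.57e-08). Its arrays were 957, 1011 and 976 with EtOH and 2203, 2124 and 2275 with DHT, more than doubled on every array. DNAJC10, an ER reductase that helps ERAD, went from 851, 911 and 862 to 1635, 1777 and 1696, a rise of 0.95 ± 0.04 (adjusted p = 6.12e-08). SDF2L1, MANF and CRELD2, small ER-resident proteins induced by ER stress, rose by 0.93 ± 0.09, 0.81 ± 0.06 and 0.80 ± 0.05. The lectin chaperones of the calnexin cycle moved least. CALR rose by 0.14 ± 0.05 (adjusted p = 0.0281) and CANX by 0.23 ± 0.06 (adjusted p = 0.0143). CALR missed the threshold without any 1 of 4 arrays (siControl with EtOH B or C, with DHT A or B; adjusted p up to 0.108), and CANX without siControl EtOH C (0.18, adjusted p = 0.0577) or DHT A (0.21, adjusted p = 0.0502).

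Among the genes of disulfide formation, 5 of 6 rose. The disulfide isomerases PDIA4, P4HB, PDIA6 and PDIA3 rose by 0.66, 0.60, 0.49 and 0.43, and the oxidase ERO1B by 0.35. The mean of all probe sets of ERO1B gave 0.13 (adjusted p = 0.413). Its paralog ERO1A did not pass, at 0.04 ± 0.06 (adjusted p = 0.636), and 1 of its 2 other probe sets gave -0.54 ± 0.09 (adjusted p = 5.17e-04), so its direction in VCaP rests on the probe set. In ERAD, 6 of 9 rose, led by HERPUD1, a scaffold of the degradation complex, by 0.62 ± 0.04 (adjusted p = 1.31e-06). The mannosidase-like EDEM3, EDEM2 and EDEM1, which mark glycoproteins for disposal, rose by 0.51, 0.40 and 0.36, and the channel proteins DERL2 and DERL1 by 0.45 and 0.38. SEL1L (0.10 ± 0.04, adjusted p = 0.0752), DERL3 (-0.11 ± 0.15) and the lectin OS9 (-0.11 ± 0.05) did not pass, but SEL1L passed without siControl EtOH B (0.13, adjusted p = 0.0381). DERL3 lay near the array median on all 24 arrays, at 32.9 to 64.2.

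Both genes of the IRE1-XBP1 arm rose in VCaP. ERN1, the sensor itself, had intensities of 523, 508 and 493 with EtOH and 958, 956 and 940.3 with DHT, a change of 0.89 ± 0.07 (adjusted p = 1.61e-06). XBP1, the transcription factor whose messenger IRE1 splices, went from 2612, 2561 and 2439 to 4296, 4129 and 4171, a change of 0.72 ± 0.05 (adjusted p = 5.11e-07). The groups did not overlap for either gene. The ATF6 group was split. CREB3L2, an ER-anchored factor of secretory cells, rose from 872, 856 and 769.8 to 2157, 1957 and 2019 (1.28 ± 0.06, adjusted p = 5.02e-08), and CREB3L4, a relative best known in prostate and testis, by 0.81 ± 0.05 (adjusted p = 3.49e-07). ATF6 did not pass, with 549, 549 and 520.1 against 529.7, 512 and 527 and a change of -0.04 ± 0.05 (adjusted p = 0.498), while 1 of its 3 other probe sets gave 0.37 ± 0.06 (adjusted p = 6.15e-04).

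In the PERK-ATF4 arm, 5 of 6 genes rose in VCaP. EIF2AK3, the sensor PERK, was at 765, 759 and 727 with EtOH and at 1294, 1201 and 1314 with DHT, a rise of 0.75 ± 0.05 (adjusted p = 7.3e-07). ATF4 itself rose by 0.21 ± 0.07 (adjusted p = 0.0317), from 5549.9, 5337 and 5334 to 6397, 6259.7 and 6129. That call was lost without any 1 of the 6 arrays, with changes of 0.20 to 0.23 and adjusted p up to 0.0892. DDIT3, the stress factor CHOP, went from 583, 576 and 586 to 1036, 965 and 1031 (0.78 ± 0.07, adjusted p = 5.22e-06). CHAC1, which degrades glutathione and is a target of this arm, had the largest change of all 38 members, 1.42 ± 0.17 (adjusted p = 5.03e-05). Its arrays were 60.2, 99.0 and 71.8 with EtOH and 244, 224 and 218 with DHT. The EtOH values were dim, on arrays with medians of 49.4 to 50.85, so the size of this change is less certain. All DHT arrays of CHAC1 were at least doubled against the highest EtOH array. TRIB3, a pseudokinase that restrains ATF4, rose by 0.38 ± 0.07 (adjusted p = 0.00128), and its other probe set gave -0.03 ± 0.11 (adjusted p = 0.852). PPP1R15A, the phosphatase subunit that ends the PERK signal, did not pass at 0.11 ± 0.08 (adjusted p = 0.293).

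**Figure D1:**
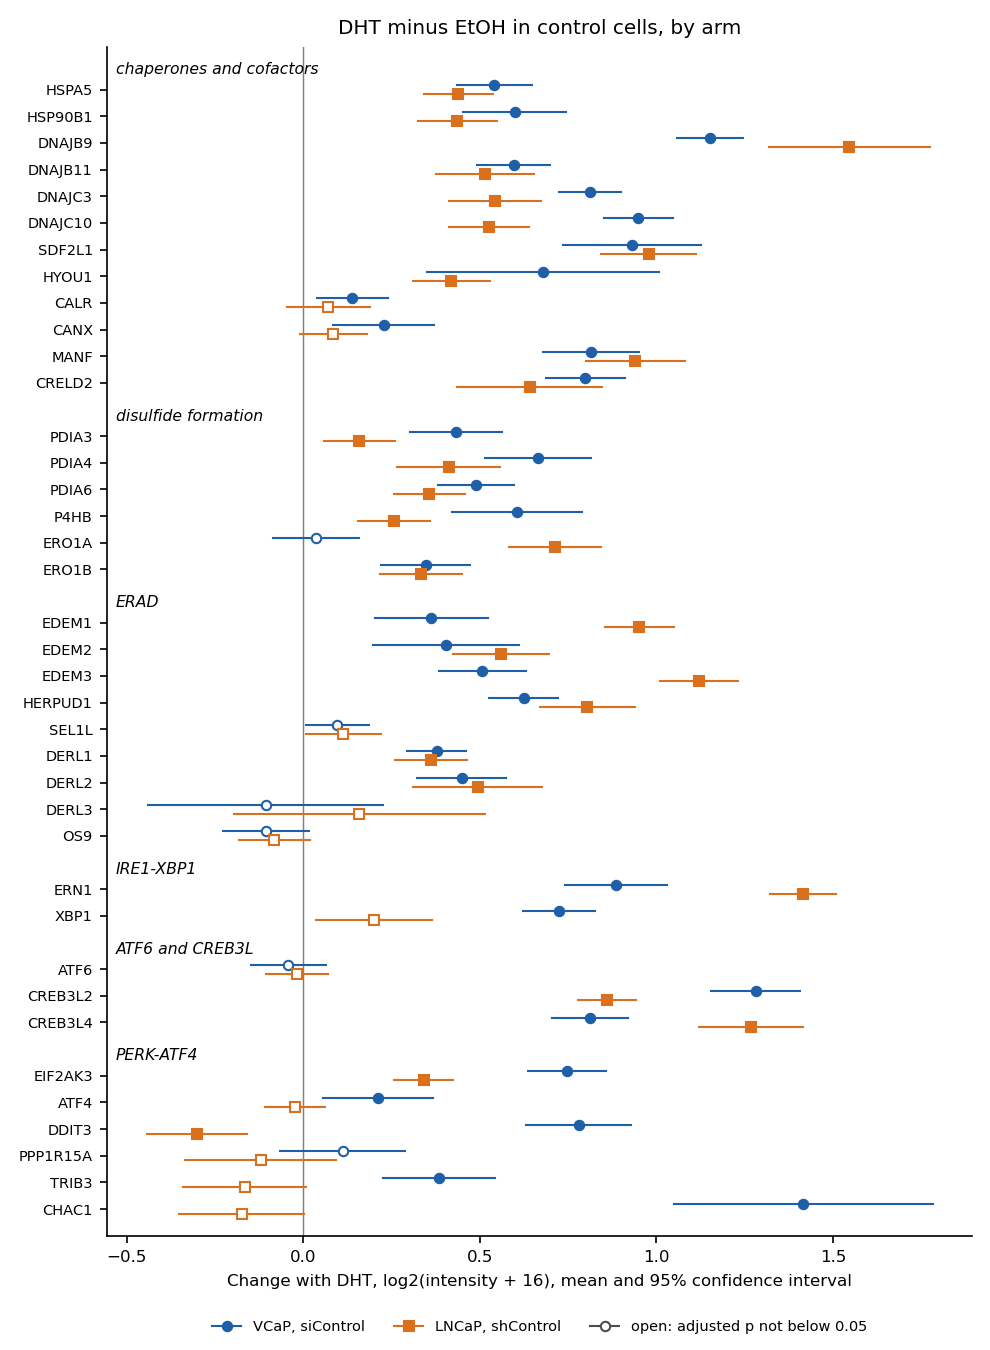
Change with DHT in control cells of VCaP (blue circles) and LNCaP (orange squares) for the 38 members, by arm, in log2(intensity + 16) with 95% confidence intervals; open marks did not pass the adjusted p of 0.05. Most marks of the first arms lie right of 0 in both lines, while in the PERK-ATF4 arm DDIT3 lies at 0.78 in VCaP and -0.30 in LNCaP.

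In LNCaP control cells the folding and degradation genes rose as well, but in the PERK-ATF4 arm only EIF2AK3 did. Of the 38 members 26 rose and 1 fell, where 18.6% of the 12823 genes tested rose and 22.3% fell. With arrays centred on their median 2871 genes were higher and 2420 lower in place of 2382 and 2855, and 29 members rose and 1 fell. The median change was 0.42 for the members and -0.01 for all genes tested. The GAPDH ratio was 1.11 ± 0.0255 (SD, n = 3) with EtOH and 1.09 ± 0.00259 with DHT (exact permutation p = 0.4), and with it as a covariate 26 rose and 1 fell. The summed luminal markers were 21188 to 22666 with EtOH and 28330.2 to 29445 with DHT, and those of other cell types 769 to 813 and 614 to 632; their part was not tested.

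Of the 12 chaperones and cofactors 10 rose, with a median of 0.52. DNAJB9 had the largest change of all members, 1.55 ± 0.10 (adjusted p = 5.18e-07), from 1102, 1220.4 and 864 with EtOH to 3024, 3083 and 3199.5 with DHT. Both of its other probe sets gave larger changes, 1.72 ± 0.07 and 1.76 ± 0.07. HSPA5 went from 5346, 5254 and 5219 to 7130.5, 7147 and 7179.6, a change of 0.44 ± 0.04 (adjusted p = 1.34e-05) on arrays that did not overlap. SDF2L1 rose by 0.98 ± 0.06 and MANF by 0.94 ± 0.06. CALR (0.07 ± 0.05, adjusted p = 0.331) and CANX (0.08 ± 0.04, adjusted p = 0.147) did not pass. CANX did so without _x_at and _s_at probe sets (0.20, adjusted p = 0.0206) and with arrays centred on their median (0.12, adjusted p = 0.039). All 6 genes of disulfide formation rose, from PDIA3 at 0.16 to ERO1A at 0.71 ± 0.06 (adjusted p = 2.82e-06). ERO1A, the main oxidase, stood at 449, 530.1 and 468 with EtOH and at 779.8, 776 and 841 with DHT, and its 2 other probe sets rose by 0.62 ± 0.07 and 0.73 ± 0.08. PDIA3 missed the threshold without shControl EtOH A (0.14, adjusted p = 0.056) or DHT A (0.12, adjusted p = 0.0643).

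ERAD held several of the largest LNCaP changes. EDEM3 went from 826, 874 and 801 to 1776, 1893 and 1824, a rise of 1.12 ± 0.05 (adjusted p = 1.94e-08). EDEM1 rose by 0.95 ± 0.04 (adjusted p = 2.77e-08) and HERPUD1 by 0.80 ± 0.06 (adjusted p = 1.51e-06). In all, 6 of 9 ERAD genes rose, and SEL1L, DERL3 and OS9 again did not pass. DERL1 rose by 0.36 ± 0.05 (adjusted p = 8.63e-05), but 1 of its 3 other probe sets fell by 0.46 (adjusted p = 0.0303) and the mean of all gave 0.12 (adjusted p = 0.161). ERN1 stood at 452, 477 and 468 with EtOH and 1263, 1276 and 1269.7 with DHT, a rise of 1.42 ± 0.04 (adjusted p = 8.07e-10) with the smallest adjusted p of any member. XBP1 did not pass. Its arrays were 3065, 3240.4 and 2682 with EtOH and 3649, 3541 and 3129.9 with DHT, overlapping, with a change of 0.20 ± 0.07 (adjusted p = 0.053). It passed without shControl EtOH B (0.26, adjusted p = 0.023) or DHT C (0.27, adjusted p = 0.0162). CREB3L4 rose from 861, 955 and 814 to 2247, 2174 and 1972 (1.27 ± 0.07, adjusted p = 7.54e-08), CREB3L2 by 0.86 ± 0.04 (adjusted p = 1.37e-08), and ATF6 did not pass at -0.02 ± 0.04 (adjusted p = 0.755).

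In the PERK-ATF4 arm of LNCaP, 1 of 6 genes rose, 1 fell and 4 did not pass. EIF2AK3 rose from 821, 836 and 862 to 1067, 1083 and 1051 (0.34 ± 0.04, adjusted p = 3.14e-05), although the mean over all its probe sets gave 0.19 (adjusted p = 0.305). DDIT3 fell, from 816, 892 and 799 with EtOH to 686, 642 and 696 with DHT, a change of -0.30 ± 0.06 (adjusted p = 0.00307) on arrays that did not overlap. ATF4 had intensities of 6189.8, 6299 and 6324 against 6167, 6304 and 6035 and a change of -0.02 ± 0.04 (adjusted p = 0.664). CHAC1 was at 234, 268 and 229 with EtOH and 224, 224 and 195 with DHT, and did not pass at -0.17 ± 0.08 (adjusted p = 0.108). TRIB3 did not pass at -0.17 ± 0.08 (adjusted p = 0.119), with 2265, 2305 and 1909 against 1978, 1978 and 1798, and passed as lower without shControl EtOH C (-0.25, adjusted p = 0.0153). PPP1R15A was at -0.12 ± 0.10.

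**Figure D2:**
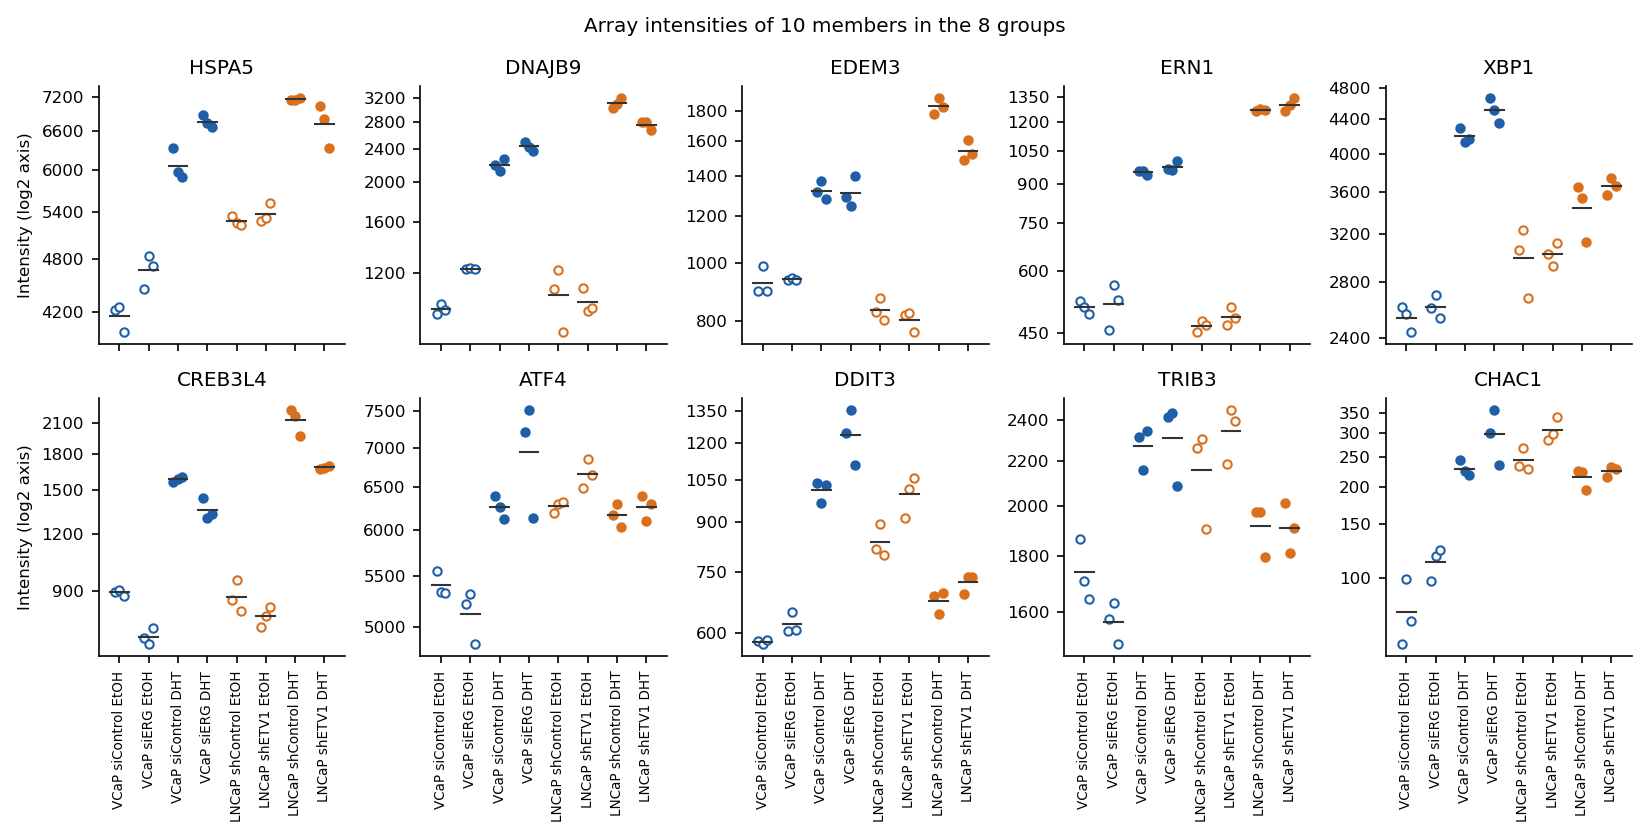
Intensity on each array (log2 axis, scaled separately per gene) of 10 members in the 8 groups; open points are EtOH, filled points DHT, blue VCaP, orange LNCaP, and lines are group means. HSPA5, DNAJB9, EDEM3, ERN1 and CREB3L4 were higher with DHT in both lines, whereas DDIT3 was 965 or more with DHT in VCaP control cells and 696 or less in LNCaP control cells.

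Setting both lines side by side, 25 members rose with DHT in VCaP and in LNCaP control cells, 5 passed in neither (SEL1L, DERL3, OS9, ATF6 and PPP1R15A) and DDIT3 rose in VCaP and fell in LNCaP. All genes were not counted across both lines at once, so these joint counts have no share to be read against. Within a line, 19.6% of all genes tested rose in VCaP and 18.6% in LNCaP. CALR, CANX, XBP1, ATF4, TRIB3 and CHAC1 passed in VCaP alone and ERO1A in LNCaP alone, although CANX and XBP1 also rose in LNCaP in some of the fits given above. Across the 38 genes the 2 sets of changes correlated at Pearson r = 0.445 and Spearman rho = 0.489, as a description over genes, which are not independent and share the arrays of a line. No such correlation was taken over all genes. Of the 11 tested members whose promoter holds an ERSE or ERSE-II, shown above in part, 11 rose in VCaP and 8 in LNCaP, with medians of 0.60 and 0.42. Of the 24 others in the promoter table, 19 rose in VCaP, and 16 rose and 1 fell in LNCaP, with medians of 0.60 and 0.50.

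The difference of the DHT response between the lines was tested directly, as LNCaP minus VCaP in control cells in a fit of all 24 arrays. The response of 6 members was higher in LNCaP and that of 11 was lower, where 17.6% of the 12305 genes tested in both lines were higher and 14.3% lower. After quantile normalization those shares turned, with 1935 genes higher and 2411 lower in place of 2164 and 1765, and 6 members were higher and 17 lower. The members' median difference was -0.09 and that of all genes 0.01. Levels are not set against each other between the lines, only changes.

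The PERK-ATF4 arm held the 3 lowest differences. CHAC1 differed by -1.59 ± 0.19 (adjusted p = 2.39e-06), with a 95% confidence interval of -1.99 to -1.19, and its VCaP values with EtOH were dim. DDIT3 differed by -1.08 ± 0.09 (adjusted p = 2.61e-08), interval -1.28 to -0.89. TRIB3 differed by -0.55 ± 0.11 (adjusted p = 0.000578) and EIF2AK3 by -0.41 ± 0.06 (adjusted p = 2.25e-05). ATF4 differed by -0.23 ± 0.08 (adjusted p = 0.0297), a call lost without any 1 of 7 of the 12 control arrays, with adjusted p up to 0.0647. PPP1R15A did not pass, with an interval of -0.50 to 0.04. All 6 genes of this arm had a lower estimate in LNCaP, and 5 of them passed, where 14.3% of all genes tested in both lines passed as lower. The arm was listed with earlier results of these data known, and its genes share the same arrays, so they do not count as independent observations.

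Outside that arm the differences ran both ways. ERO1A (0.68 ± 0.08, adjusted p = 1.81e-06), EDEM3 (0.61 ± 0.07, adjusted p = 2.05e-06), EDEM1 (0.59 ± 0.08, adjusted p = 2.12e-05) and ERN1 (0.53 ± 0.08, adjusted p = 2.27e-05) responded more in LNCaP. DNAJC10 responded more in VCaP, by a difference of -0.42 ± 0.07 (adjusted p = 4.36e-05). XBP1, ERN1's substrate, went the other way from ERN1, with a difference of -0.52 ± 0.09 (adjusted p = 0.000111). The relatives CREB3L4 and CREB3L2 also parted, at 0.46 ± 0.08 and -0.42 ± 0.07. HSPA5 did not pass, and its interval of -0.23 to 0.03 bounds the difference; it passed after quantile normalization (-0.17, adjusted p = 0.0399). For the ERAD genes SEL1L, DERL1 and OS9 the intervals were -0.11 to 0.14, -0.13 to 0.10 and -0.12 to 0.17. HYOU1 did not pass, but did so without siControl DHT C (-0.44, adjusted p = 0.0107), an array on which it read 2459 against 3532 and 3624 on the other two. HSP90B1, PDIA4, HERPUD1 and CRELD2 did not pass either, and each did without at least 1 single array: HSP90B1 and PDIA4 without siControl EtOH A (-0.24, adjusted p = 0.0111, and -0.30, adjusted p = 0.0312), PDIA4 also without siControl EtOH B or shControl EtOH B, HERPUD1 without shControl EtOH B (0.26, adjusted p = 0.0023), and CRELD2 without shControl EtOH C (-0.27, adjusted p = 0.0268).

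**Figure D3:**
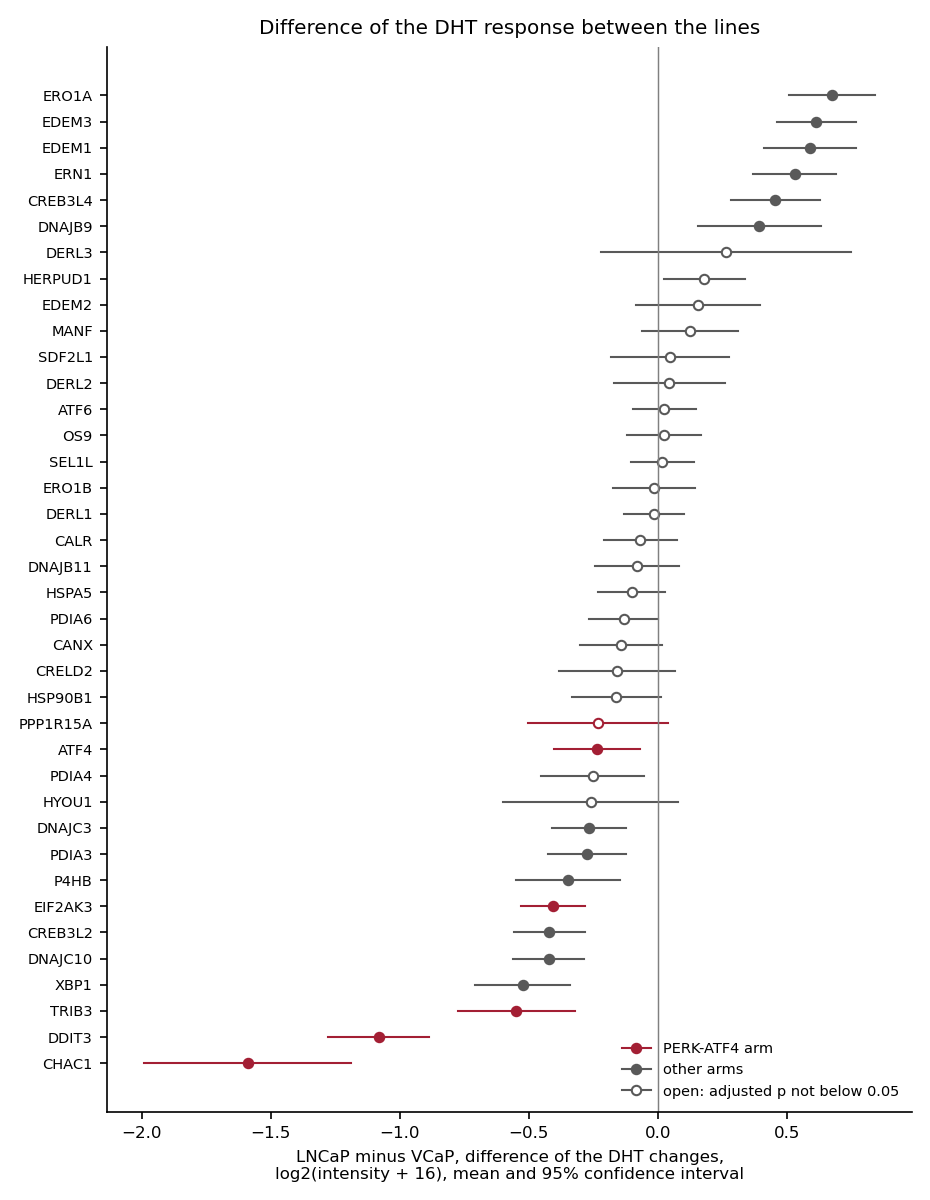
Difference of the DHT change between lines (LNCaP minus VCaP, control cells) for the 38 members in log2(intensity + 16) with 95% confidence intervals, sorted; red marks are the PERK-ATF4 arm and open marks did not pass the adjusted p of 0.05. CHAC1 at -1.59 and DDIT3 at -1.08 stand lowest, ERO1A at 0.68 highest.

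No member passed in the test of a changed DHT response after either knockdown, which lay near the very low share of all genes given below. ERG and ETV1 were lowered in part only, as their intensities above show. In siERG cells 33 members rose with DHT and 0 fell, where 20.1% of genes rose and 25.2% fell; after centring each array on its median the all-gene counts were 3436 higher and 2450 lower in place of 2576 and 3238. At an unadjusted p under 0.05 the member counts were the same, 33 and 0. The GAPDH ratio was 1.09 ± 0.0237 (SD, n = 3) with EtOH and 1.03 ± 0.00728 with DHT in siERG cells (exact permutation p = 0.1), and with it as a covariate 23 members rose, while all genes went from 2576 higher and 3238 lower to 915 and 1602. The ratio did not overlap between these groups, so its part cannot be told apart from that of DHT. The largest changes were CHAC1 at 1.27 ± 0.17, CREB3L2 at 1.09 ± 0.06, SDF2L1 at 1.05 ± 0.09 and DNAJB9 at 0.97 ± 0.04. HSPA5 rose by 0.54, ERN1 by 0.91, XBP1 by 0.79, EIF2AK3 by 0.70, DDIT3 by 0.97 and ATF4 by 0.43, and ATF6 did not pass (0.10 ± 0.05, adjusted p = 0.103), although it did without siERG DHT C (0.14, adjusted p = 0.0339). The ATF4 call was lost once the GAPDH ratio entered the fit (0.23, adjusted p = 0.272). CHAC1 read 97.5, 118 and 124 with EtOH and 301, 358 and 235 with DHT. SDF2L1 read 566, 641 and 549 and 1308, 1294 and 1085. Replicate C was the lowest array of siERG with DHT for ATF4 (7207, 7517 and 6132), DDIT3, TRIB3, CHAC1, HYOU1 and MANF. The interaction, the DHT response of siERG cells minus that of siControl cells, passed for 0 members in limma (0.0623% of genes higher, 0.226% lower, or 8 and 29 genes, which became 19 and 36 after quantile normalization 8 and 13 with centring, and 40 and 35 without siERG DHT C), with 1 member higher and 3 lower at an unadjusted p under 0.05 and estimates from -0.20 to 0.22. Those were ATF4 (0.22 ± 0.10, adjusted p = 0.455), DNAJB9, ERO1B and CREB3L2.

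In shETV1 cells 27 members rose with DHT and 3 fell, where 18.8% of genes rose and 19% fell. After quantile normalization 2080 genes were higher and 2992 lower in place of 2417 and 2439, and 26 members rose and 5 fell. The largest rises were DNAJB9 at 1.42 ± 0.10, ERN1 at 1.40 ± 0.04, CREB3L4 at 1.07 ± 0.07 and EDEM1 at 0.94 ± 0.04. HSPA5 rose by 0.32, EIF2AK3 by 0.42 and XBP1 by 0.27 ± 0.07 (adjusted p = 0.014), the last call lost without shETV1 EtOH B (0.25, adjusted p = 0.0511). The mean of all probe sets of EIF2AK3 gave 0.20 (adjusted p = 0.277). The 3 that fell belonged to the PERK-ATF4 arm. DDIT3 read 911, 1016 and 1058 with EtOH and 691, 737 and 737 with DHT, a change of -0.45 ± 0.06 (adjusted p = 0.000213). CHAC1 read 284, 297 and 339 and 216, 232 and 228, a change of -0.42 ± 0.08 (adjusted p = 0.00172). TRIB3 changed by -0.29 ± 0.08 (adjusted p = 0.013), from 2189, 2453 and 2393 to 2013, 1813 and 1909, a call lost without shETV1 EtOH B (-0.26, adjusted p = 0.0511). The DHT and EtOH arrays of these genes did not overlap, which the rule for naming CHAC1 and TRIB3 asks. ATF4 (-0.09 ± 0.04, adjusted p = 0.0907) and ATF6 (-0.02 ± 0.04) did not pass. The interaction passed for 0 members in limma (0.078% of genes higher, 0.0234% lower, or 10 and 3 genes, which became 9 and 7 after quantile normalization), with 0 higher and 3 lower (SDF2L1, ERO1A and EDEM3) at an unadjusted p under 0.05 and estimates from -0.24 to 0.11.

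Few members passed in the knockdown comparisons, and in siERG with DHT and in both shETV1 comparisons the share that passed lay near that of all genes. With EtOH, siERG raised 4 members and lowered 2, where 5.37% of genes rose and 5.87% fell. With each array centred on its median the all-gene counts were 393 higher and 1167 lower in place of 690 and 754. The GAPDH ratio was 1.05 ± 0.0128 (SD, n = 3) in siControl and 1.09 ± 0.0237 in siERG (exact permutation p = 0.1), and with it as a covariate 1 member rose and 1 fell, while all genes went to 113 higher and 162 lower. This ratio did not overlap between the groups, so its part cannot be told apart from the knockdown. Summed luminal markers were 21864 to 23341 in siControl and 20169.7 to 20737 in siERG, and those of other cell types 951 to 1058 and 719 to 809.5; their part was not tested. The siControl arrays are the same ones that served the DHT comparison. DNAJB9 rose by 0.32 ± 0.04 (adjusted p = 0.000938), from 957, 1011 and 976 in siControl to 1229.8, 1239 and 1229 in siERG. CREB3L4 fell, from 899, 907 and 879 to 709.9, 689 and 749.7, a change of -0.32 ± 0.05 (adjusted p = 0.00236). Both calls held without any 1 of the 6 arrays. ERO1B read 274, 273 and 291 in siControl and 336, 348 and 334 in siERG (0.27 ± 0.06, adjusted p = 0.0136). CREB3L2 read 872, 856 and 769.8 and 984, 1031 and 968 (0.25 ± 0.06, adjusted p = 0.0184). DERL1 read 1339, 1338 and 1320.5 and 1467, 1517 and 1527 (0.17 ± 0.04, adjusted p = 0.0152). ATF6 fell from 549, 549 and 520.1 to 466, 467 and 499 (-0.17 ± 0.05, adjusted p = 0.0445). The rule for naming members asks for arrays without overlap, so that trait of these 4 adds nothing to their calls. Each call was lost when single arrays were left out: ERO1B without siControl A or B or siERG B (adjusted p up to 0.0585), CREB3L2 without siControl C or siERG B (up to 0.0762), DERL1 without siControl C, siERG B or siERG C (up to 0.0625), and ATF6 without any of 5 of the 6 (up to 0.142). By the mean of all probe sets DERL1 was at 0.05 (adjusted p = 0.428), ERO1B at 0.16 (adjusted p = 0.447) and ATF6 at 0.026 (adjusted p = 0.761). HSPA5 did not pass (0.16 ± 0.05, adjusted p = 0.0534) but did without siERG A (0.20, adjusted p = 0.0474) and after quantile normalization (0.18, adjusted p = 0.0298). EIF2AK3 (0.14 ± 0.05, adjusted p = 0.0908), DDIT3, ATF4, XBP1 and ERN1 did not pass. CHAC1 had the largest estimate, 0.49 ± 0.17 (adjusted p = 0.087), and passed without siControl B (0.65, adjusted p = 0.0352).

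With DHT, siERG raised 3 members and lowered 1, where 3.79% of genes rose and 5.18% fell. DDIT3 read 1036, 965 and 1031 in siControl and 1246, 1354 and 1107 in siERG (0.28 ± 0.07, adjusted p = 0.0263). CRELD2 read 1849.7, 1868 and 1920.3 and 2253, 2138 and 2035 (0.19 ± 0.05, adjusted p = 0.0453). DERL1 read 1726, 1763 and 1719 and 1896, 1902 and 1985 (0.15 ± 0.04, adjusted p = 0.0325), and the mean of its probe sets gave 0.08 (adjusted p = 0.24). CREB3L4 was lower again, with 1560.3, 1588 and 1600.1 against 1439, 1300.3 and 1333 (-0.22 ± 0.05, adjusted p = 0.0175). All 4 were on arrays that did not overlap, as the naming rule asks. Leaving out any 1 array other than siERG C ended the call of DDIT3, CRELD2 and DERL1, and leaving out siControl B, siControl C or siERG B ended that of CREB3L4 (adjusted p up to 0.0708). Without siERG C 6 members rose and 1 fell, among them DNAJB9, MANF and ATF4 (0.23, adjusted p = 0.0174), while all genes went from 487 higher and 665 lower to 922 and 662. The GAPDH ratio was 1.07 ± 0.00805 in siControl and 1.03 ± 0.00728 in siERG with DHT (exact permutation p = 0.1), and with it as a covariate 0 members passed, while 60 of all genes were higher and 212 lower. The ACTB ratio was 3.50 ± 0.0571 and 2.84 ± 0.308 (SD, n = 3, exact permutation p = 0.1). With it as a covariate 1 member rose and 0 fell, while 364 of all genes were higher and 295 lower. Neither ratio overlapped between these groups, so the part of either ratio cannot be told apart from the knockdown. Summed markers of other cell types were 883 to 1105 in siControl and 708 to 790.3 in siERG with DHT, without overlap; their part was not tested. HSPA5 (0.16 ± 0.05, adjusted p = 0.07), XBP1, ATF4, ERN1, EIF2AK3 and ATF6 did not pass.

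In LNCaP, shETV1 raised 0 members and lowered 1 with EtOH, where 1.22% of genes rose and 2.97% fell. At an unadjusted p under 0.05 in limma 5 members were higher and 4 lower, without a count of all genes at that threshold. EIF2AK3 fell from 821, 836 and 862 to 741, 747 and 733 (-0.18 ± 0.04, adjusted p = 0.0266), a call lost without any 1 of the 6 arrays, with adjusted p up to 0.0917. DDIT3 and CHAC1 were higher on all shETV1 arrays and did not pass, at 0.25 ± 0.06 (adjusted p = 0.0598) and 0.31 ± 0.08 (adjusted p = 0.0573). Each passed without shControl B (0.29, adjusted p = 0.0437, and 0.38, adjusted p = 0.0352), as did DNAJB11 and ERO1A, and DDIT3 passed without shETV1 A too (0.31, adjusted p = 0.0319). Without shControl B all genes went from 157 higher and 381 lower to 266 and 255. HSPA5, XBP1, ERN1, ATF4 and ATF6 did not pass, with estimates from -0.10 to 0.09. With DHT, shETV1 raised 0 members and lowered 2, where 2.68% of genes rose and 2.5% fell. At an unadjusted p under 0.05 in limma 0 members were higher and 9 lower, again without a count of all genes. Summed luminal markers were 28330.2 to 29445 in shControl and 25957 to 26981 in shETV1, and the GAPDH ratio was 1.09 ± 0.00259 (SD, n = 3) and 1.08 ± 0.00897 (exact permutation p = 0.1); 2 members were lower with it as a covariate too. With arrays centred on their median, 224 genes were higher and 484 lower in place of 344 and 321, after quantile normalization 218 and 429, and under both the 2 members lowered remained 2 in number. EDEM3 read 1776, 1893 and 1824 in shControl and 1488, 1604 and 1520.2 in shETV1 (-0.25 ± 0.05, adjusted p = 0.0187). CREB3L4 read 2247, 2174 and 1972 and 1672, 1680.3 and 1696 (-0.34 ± 0.07, adjusted p = 0.0179). Neither pair of groups overlapped, as the naming rule asks. The EDEM3 call was lost without shControl B, shETV1 A or shETV1 C (adjusted p up to 0.0761), and that of CREB3L4 without these or shControl A (up to 0.0681). With the ACTB ratio as covariate the calls of EDEM3 (-0.23, adjusted p = 0.073) and CREB3L4 (-0.26, adjusted p = 0.0711) were lost. CREB3L4, a gene that DHT raised in both lines, passed as lower after ERG knockdown with EtOH and DHT and after ETV1 knockdown with DHT. Its change with EtOH in LNCaP was -0.14 ± 0.07 (adjusted p = 0.311). Its siERG call with DHT was lost with the GAPDH (-0.16, adjusted p = 0.37) or ACTB ratio (-0.18, adjusted p = 0.155) and from only the groups compared (adjusted p = 0.102).

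**Figure D4:**
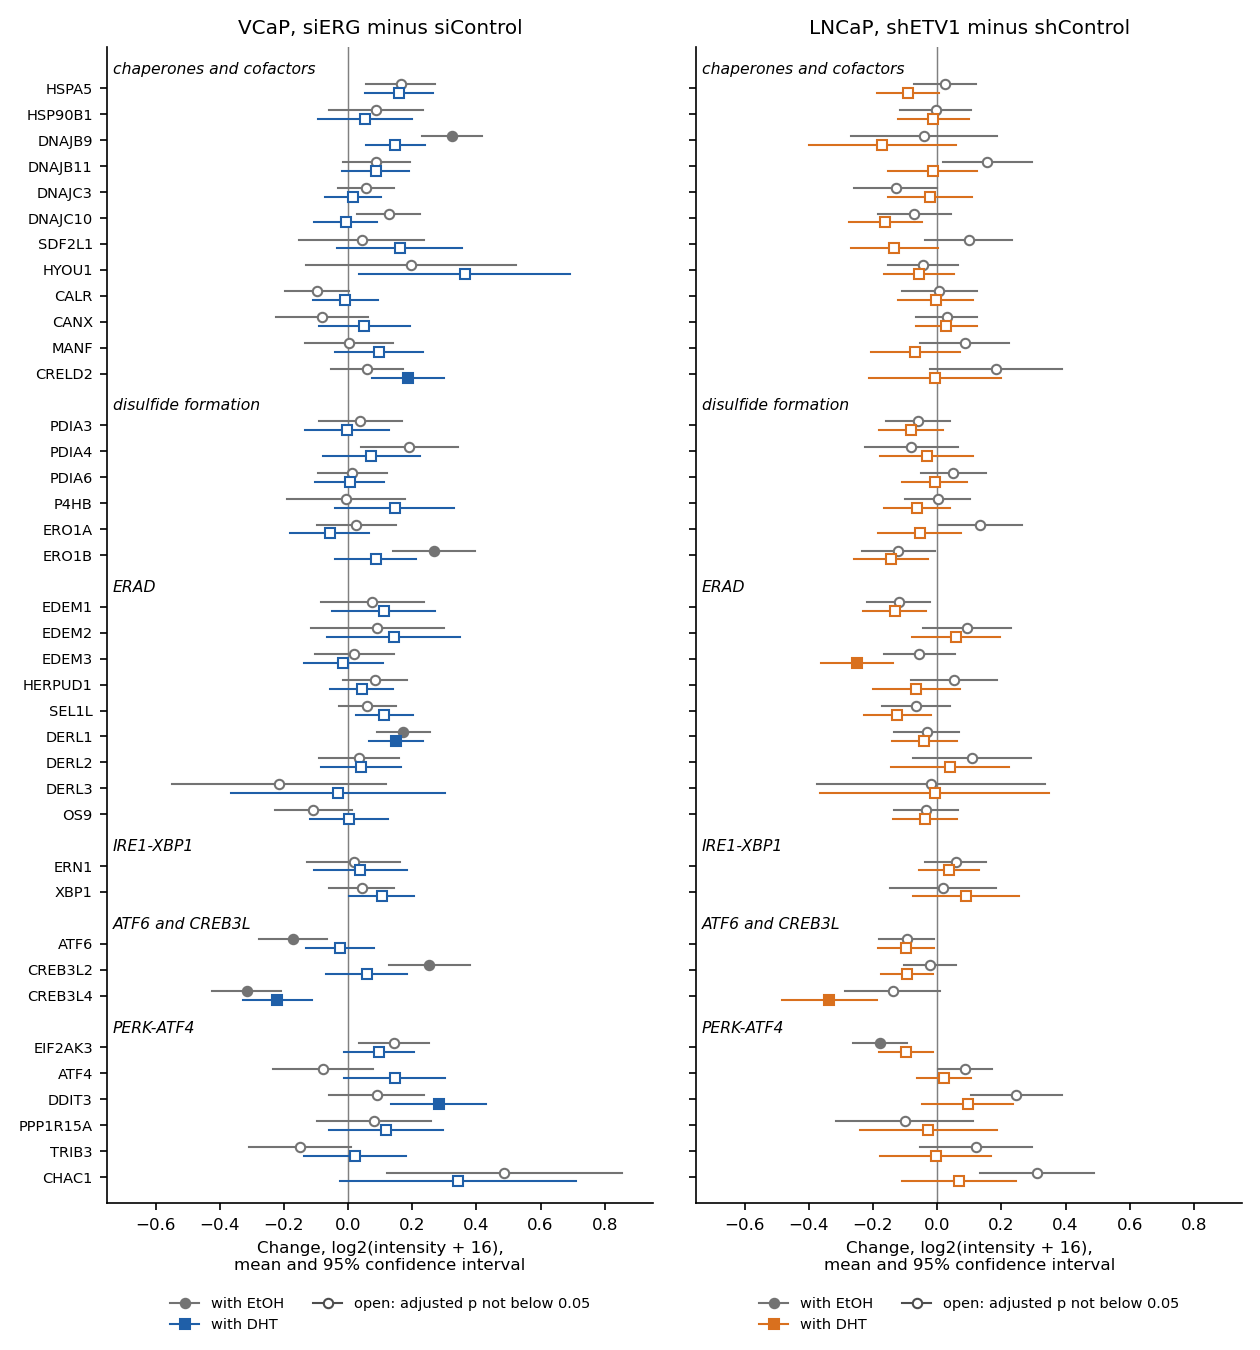
Change with siERG in VCaP (left) and with shETV1 in LNCaP (right) for the 38 members, by arm, with EtOH (grey circles) and DHT (coloured squares), in log2(intensity + 16) with 95% confidence intervals; open marks did not pass the adjusted p of 0.05. Nearly all marks are open, and CREB3L4 is the 1 member filled in 3 of the 4 comparisons.

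Neighbouring pathways were counted in the same comparisons, from lists written by function with earlier results of these data known. In these comparisons 19.6% of all genes rose and 25.4% fell in VCaP, and 18.6% rose and 22.3% fell in LNCaP. Genes that move proteins from the ER to the Golgi rose in 21 of 21 tested in VCaP control cells (median 0.44) and in 17 of 21 in LNCaP (median 0.33), with 0 falling in either. The coat proteins SEC13 (0.61 ± 0.05, adjusted p = 2.74e-06) and SAR1B (0.54 ± 0.04) are examples in VCaP, and the cargo receptor LMAN1 (0.52 ± 0.04, adjusted p = 1.09e-06) and the coat protein SEC24B (0.69 ± 0.05) in LNCaP. Of 18 genes of ER translocation and signal peptide removal, 14 rose and 1 fell in VCaP, and 14 rose and 0 fell in LNCaP. SSR3, a translocon-associated subunit, rose by 1.22 ± 0.05 (adjusted p = 3.73e-08) and 0.80 ± 0.06 (adjusted p = 8.6e-07). N-glycosylation genes rose in 8 of 14 with 1 falling in VCaP, and in 6 of 14 with 0 falling in LNCaP, among them the oligosaccharyltransferase subunit RPN1 (0.69 ± 0.05 and 0.32 ± 0.04). Cytosolic heat shock genes rose in 8 of 12 with 0 falling in VCaP (median 0.19), and 4 rose and 1 fell in LNCaP (median 0.06).

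The list named ATF4 amino acid targets also holds genes of other functions, such as VLDLR, ATF3, ATF5 and DDIT4. Written with earlier results of these data known, it parted between the lines as well. In VCaP 20 of 24 rose with DHT and 2 fell, with a median of 0.50. In LNCaP 3 rose and 11 fell, with a median of -0.05. ASNS, the asparagine synthetase, and PSAT1, of serine synthesis, rose in VCaP by 1.12 ± 0.06 (adjusted p = 1.12e-07) and 0.95 ± 0.05 (adjusted p = 1.02e-07). SLC7A5, an importer of large amino acids, and SESN2, a leucine sensor, changed in LNCaP by -0.69 ± 0.06 (adjusted p = 5.49e-06) and -0.62 ± 0.06 (adjusted p = 7e-06). VLDLR and CTH went the other way, at -0.23 ± 0.04 and -0.20 ± 0.06 in VCaP and 1.44 ± 0.08 and 0.20 ± 0.04 in LNCaP. The difference between the lines passed as lower in LNCaP for 21 of the 24 genes and as higher for 2, with a median of -0.63. Of all genes tested in both lines 14.3% passed as lower and 17.6% as higher. ASNS differed by -1.36 ± 0.07 (adjusted p = 1.81e-11) and PSAT1 by -1.27 ± 0.08 (adjusted p = 2.99e-10). The androgen control genes ran the other way, with all 4 tested rising more in LNCaP. FKBP5 rose by 1.90 ± 0.07 in VCaP and 3.52 ± 0.07 in LNCaP.

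**Figure D5:**
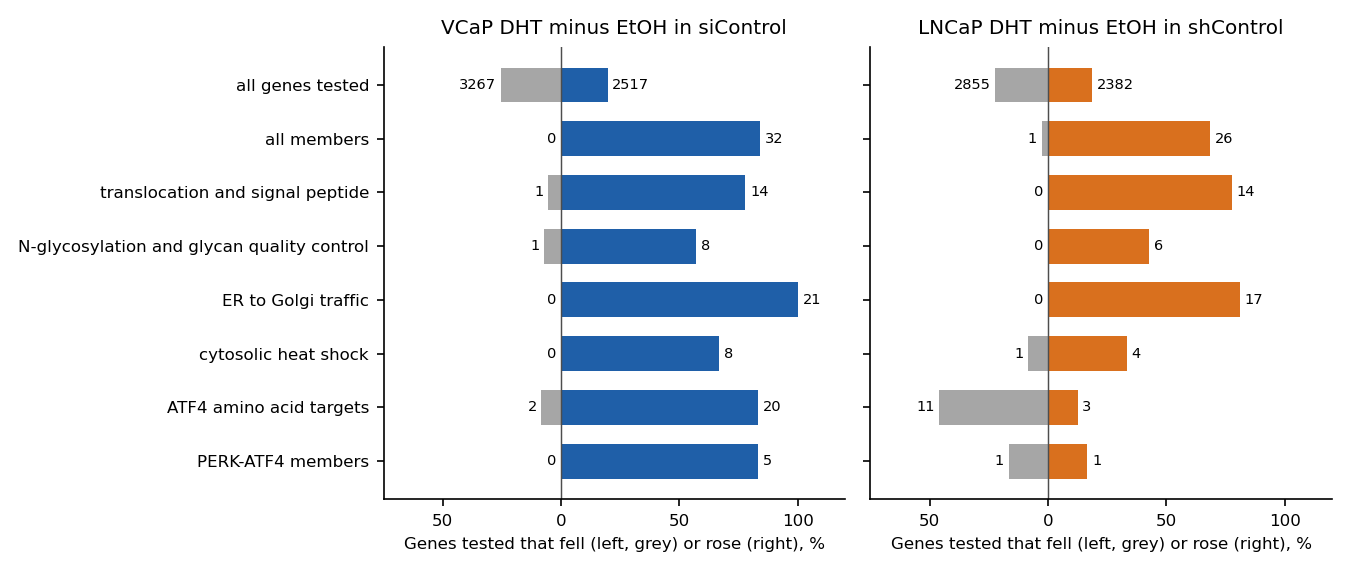
Share of the tested genes of each list that rose (right, coloured) or fell (left, grey) with DHT in control cells of VCaP and LNCaP, in percent, with the number of genes at each bar. The ATF4 amino acid targets had 20 rising and 2 falling in VCaP and 3 rising and 11 falling in LNCaP, while 21 and 17 ER to Golgi genes rose.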

How the data were processed

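The authors deposited 1 linear intensity per probe set and array; the summarisation and scaling behind it were not stated in the labels. Arrays carried total RNA extracted with Trizol, per the labels' protocols. The values were used as log2(intensity + 16). Of 54675 probe sets, 41097 named 1 gene in the probe table, giving 19775 genes, each read from the probe set with the highest mean log2 value. Testing in a line required a value above the array median on at least 3 of its 12 arrays (12840 genes in VCaP, 12823 in LNCaP, 12305 in both). Limma 3.58.1 in R 4.3.3 fitted 4 groups of 3 arrays per line, and all 24 arrays for the difference between lines, two-sided with Benjamini-Hochberg adjustment over all genes tested and a threshold of 0.05. It was tested on simulated data. Drawing used matplotlib 3.10.9 in Python 3.11.15.

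Members, arms and lists were chosen with earlier results of these data known. Members named with array values are the up to 4 highest and 4 lowest called changes whose arrays did not overlap, with HSPA5, XBP1, ATF4, DDIT3, ERN1, EIF2AK3 and ATF6 always given; for other lists, up to 2 genes per direction by adjusted p; between lines, the 8 smallest adjusted p. Other members named were added after their values were seen. Alternatives covered the choice of probe sets, filter, pseudocount (1 or 64), quantile normalization, centring, replicate block, fits of other array sets, GAPDH and ACTB 3'/5' ratios as covariates, and left-out arrays. Nothing in the labels names batches. HSP90B1, PDIA6, CALR and OS9 were read from _x_at probe sets, which may bind related transcripts.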

Additional observations from a re-analysis of the deposited data

Results flagged for a closer look

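A total of 17 members responded to DHT differently in the lines, by the test of LNCaP minus VCaP in control cells (limma over 24 arrays, log2 difference ± standard error). Of the 38 members 6 were higher in LNCaP and 11 lower, where 17.6% of the 12305 genes tested were higher and 14.3% lower. The count of members higher in LNCaP thus lay near the share of all genes. The response was lower in LNCaP for 5 of the 6 genes of the PERK-ATF4 arm, and that of PPP1R15A, also lower at -0.23, did not pass: CHAC1 -1.59 ± 0.19 (adjusted p = 2.39e-06), DDIT3 -1.08 ± 0.09, TRIB3 -0.55 ± 0.11, EIF2AK3 -0.41 ± 0.06 and ATF4 -0.23 ± 0.08 (adjusted p = 0.0297). It was also lower for XBP1 at -0.52 ± 0.09, DNAJC10 at -0.42 ± 0.07, CREB3L2 at -0.42 ± 0.07, P4HB at -0.35 ± 0.10 (adjusted p = 0.00861), PDIA3 at -0.27 ± 0.07 (adjusted p = 0.00651) and DNAJC3 at -0.27 ± 0.07 (adjusted p = 0.00506). It was higher in LNCaP for ERO1A at 0.68 ± 0.08, EDEM3 at 0.61 ± 0.07, EDEM1 at 0.59 ± 0.08, ERN1 at 0.53 ± 0.08, CREB3L4 at 0.46 ± 0.08 and DNAJB9 at 0.39 ± 0.11 (adjusted p = 0.0118). DNAJB9 missed the threshold in a fit of the compared groups alone (0.39, adjusted p = 0.055) and with the GAPDH ratio as a covariate (0.31, adjusted p = 0.0855). The mean over all probe sets of EIF2AK3 and CREB3L2 gave -0.24 (adjusted p = 0.309) and -0.26 (adjusted p = 0.0963). The lines also differ in the RNA interference used and in the median intensity of their arrays, and the part of either in these differences cannot be told apart from the line.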

How the results depend on the processing

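The member counts of the 4 DHT comparisons, the interactions and the line difference stayed within 1.5 times their value under each of the 13 alternatives that applied to them and every left-out array. Without single arrays they were 29 to 31 (32 in all) in siControl, 32 to 34 (33) in siERG, 26 to 28 (27) in shControl, 27 to 30 (30) in shETV1, 16 to 19 (17) between lines and 0 for the interactions.

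The knockdown counts did not hold. For siERG with EtOH, 6 members became 3 with arrays centred on their median, 2 with the GAPDH ratio as covariate and 2 to 6 without single arrays. For siERG with DHT, 4 became 1 without the filter on low intensity, 2 with centring, 2 with the replicate block, 0 from only the groups compared, 0 with the GAPDH and 1 with the ACTB ratio, and 0 to 7 without single arrays. For shETV1 with EtOH, 1 became 0 with the mean of all probe sets, without the filter, with the replicate block, from the groups compared and with the GAPDH ratio; 2 after quantile normalization, with centring and in a fit of 24 arrays; 3 with the filter at the 60th percentile and with a pseudocount of 64; and 0 to 4 without single arrays. For shETV1 with DHT, 2 became 1 without the filter and from the groups compared, 0 with the ACTB ratio, and 0 to 2 without single arrays. The cause was not tested, and the GAPDH ratios did not overlap between the groups of either siERG comparison.

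Directions turned for ATF6 under siERG with EtOH (0.026 by the mean of all probe sets, adjusted p = 0.761) and for ERO1A in VCaP: -0.38 under siERG with EtOH and -0.54 under DHT without _x_at and _s_at probe sets, and -0.20 under DHT by the mean of probe sets.

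Arrays with the same letter A, B or C showed little shared deviation. Their deviations had a median correlation of -0.0068 in VCaP and -0.0231 in LNCaP, and 3 and 2 of 12 arrays correlated best with their own letter. The labels do not say what the letters mark, and these values cannot exclude a pairing. Beside the counts above, the replicate block gave 32 and 32 members in the VCaP DHT comparisons, 27 and 29 in LNCaP, 5 and 2 in the other knockdown comparisons and 18 between lines. Dim probe sets such as that of DERL3 limit what these arrays can show, and 3 arrays per group limit all small changes.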
